A study of Mus musculus with 12 samples.

Results

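The comparison described here is the response of Ikaros-intact mouse CD4 T cells to stimulation of their antigen receptor. It rests on 6 of the 12 arrays of the series: 3 of unstimulated cells (baseline, 0 h) and 3 of cells activated for 24 h, all with the genotype Lck-Cre-;Ikzf+/+, named Cre- in the labels. These cells carry the wild-type alleles of the gene for Ikaros and no Cre. The other 6 arrays hold Lck-Cre+;Ikzf-/- cells at the same states (named Cre+), in which the promoter of Lck, a kinase of the T cell lineage, drives Cre. All samples were CD4+ T cells from spleen, and activation was with antibody to CD3 fixed to the plate and antibody to CD28 in solution. Total RNA was hybridised to Mouse Gene 2.0 ST arrays, and every one of the 23185 probe sets that pair with 1 mouse gene entered the comparison, out of 25206 on the array. No group was kept in culture for 24 h without the antibodies, so the effects of culture and of stimulation cannot be told apart. The age and sex of the mice are not in the labels. Nor do they say whether each array is 1 mouse, so the p-values measure the spread between arrays within the groups.

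CD4 T cells circulate in a resting state in which growth, division and the secretion of cytokines are held down. Binding of the T cell receptor, mimicked by antibody to CD3, starts calcium, NF-kappaB and MAP kinase signals that release the transcription factors NFAT, NF-kappaB and AP-1, and the co-receptor CD28 strengthens these signals. Within hours the cell makes interleukin-2 and the high-affinity chain of its receptor, raises the transcription factor MYC, takes up amino acids and glucose, builds ribosomes and then enters the cell cycle, while genes that keep naive cells quiescent and circulating are turned down.

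The Cre- activated array 3 stood apart. Across genes it correlated at 0.972 and 0.976 with the other activated arrays, which correlated at 0.994 with each other, and the 3 baseline arrays correlated at 0.992 to 0.993. By Xist and Eif2s3y, 1 of the 3 baseline arrays and 2 of the 3 activated arrays were from females, so each group held RNA of more than 1 mouse. All 11 measured CD4 T cell markers read above the array medians (4.04 to 4.17 on the log2 scale) in both groups, as did markers of other cells, so that this does not show purity. Cd4 read 11.32, 11.26 and 11.12 at baseline and 10.98, 10.92 and 10.48 after activation. Over all genes tested, 9.39% rose and 9.10% fell. Of the CD4 T cell list 4 of 11 members fell and by limma none rose (0 at an unadjusted p under 0.05), with a median log2 change of -0.44, and its summed level on the linear scale went from between 12958 and 13822 to between 9383 and 11005. Markers of other cells were also present at baseline, and many fell. The B cell list fell in 14 of its 15 measured members (median log2 change -2.60), and its summed level on the linear scale went from between 8044 and 9468 at baseline to between 1018 and 2596 after activation. The myeloid and dendritic cell list fell in 13 of 17 (median -1.63), from a summed level of 1067 to 1385 to one of 357 to 419. The NK cell list fell in 5 of 7 (median -1.17), from a summed level of 434 to 528 to one of 298 to 356. No B cell marker had a mean below the array medians at baseline, and 1 did after activation, against 4 and 12 of the myeloid markers. Plasma cell markers rose in 2 of 5, Irf4 and Xbp1, which activated T cells also express, and fell in 1, gamma delta T cell markers fell in 2 of 5, and by limma none of the 2 CD8 T cell, 5 erythroid and 7 platelet markers passed (at an unadjusted p under 0.05, 0, 0 and 1). In bulk samples, fewer cells of a type and less RNA per cell cannot be told apart, and the part of these other cells in each decrease below was not tested.

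After 24 h, 2177 genes were higher (9.39% of the genes tested) and 2110 were lower (9.10%), at a Benjamini-Hochberg adjusted p under 0.05 with no minimum fold. Of the increases 719 reached 2-fold (3.10% of all genes), and of the decreases 829 (3.58%). All 3 activated values lay above all 3 baseline values for 4106 genes (17.7%) and below them for 4040 (17.4%). Without activated array 3, 1593 genes were higher (6.87%) and 1556 lower (6.71%). The number of increases fell most without baseline array 1 (1443) or baseline array 3 (1448). The balance of the directions depended on the scaling: centring each array on its median gave 2816 higher and 1649 lower, and scaling to the 75th percentile gave 1961 higher and 2362 lower. The median change over all genes was -0.0047 as deposited and 0.08 with median centring. Many of the genes with the largest increases read near or below the array medians at baseline, so that their fold compares a measured level with a reading near the low end of the array.

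**Figure D1:**
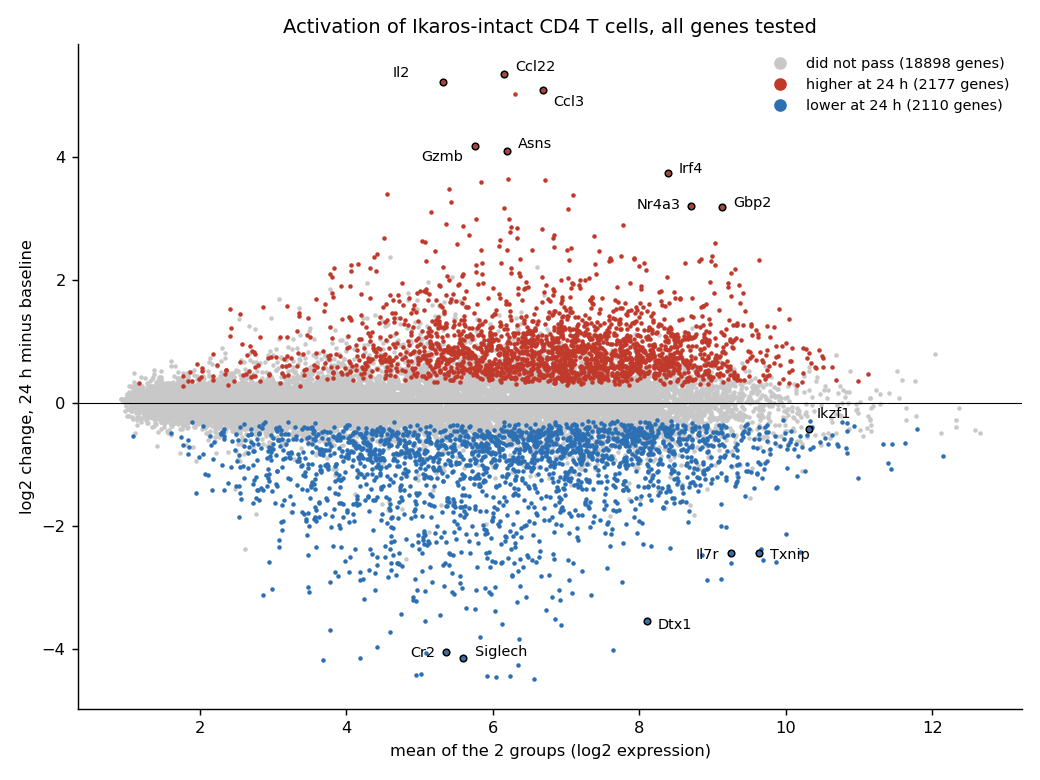
Log2 change (24 h minus baseline, vertical axis) against the mean of the baseline and activated groups (log2 expression, horizontal axis) for each of the 23185 genes, in red where higher (2177), blue where lower (2110) and grey where the test was not passed. Cytokine and chemokine genes such as Il2 and Ccl22 lie at the top, and the B cell gene Cr2 and the plasmacytoid dendritic cell gene Siglech at the bottom.

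**Figure D2:**
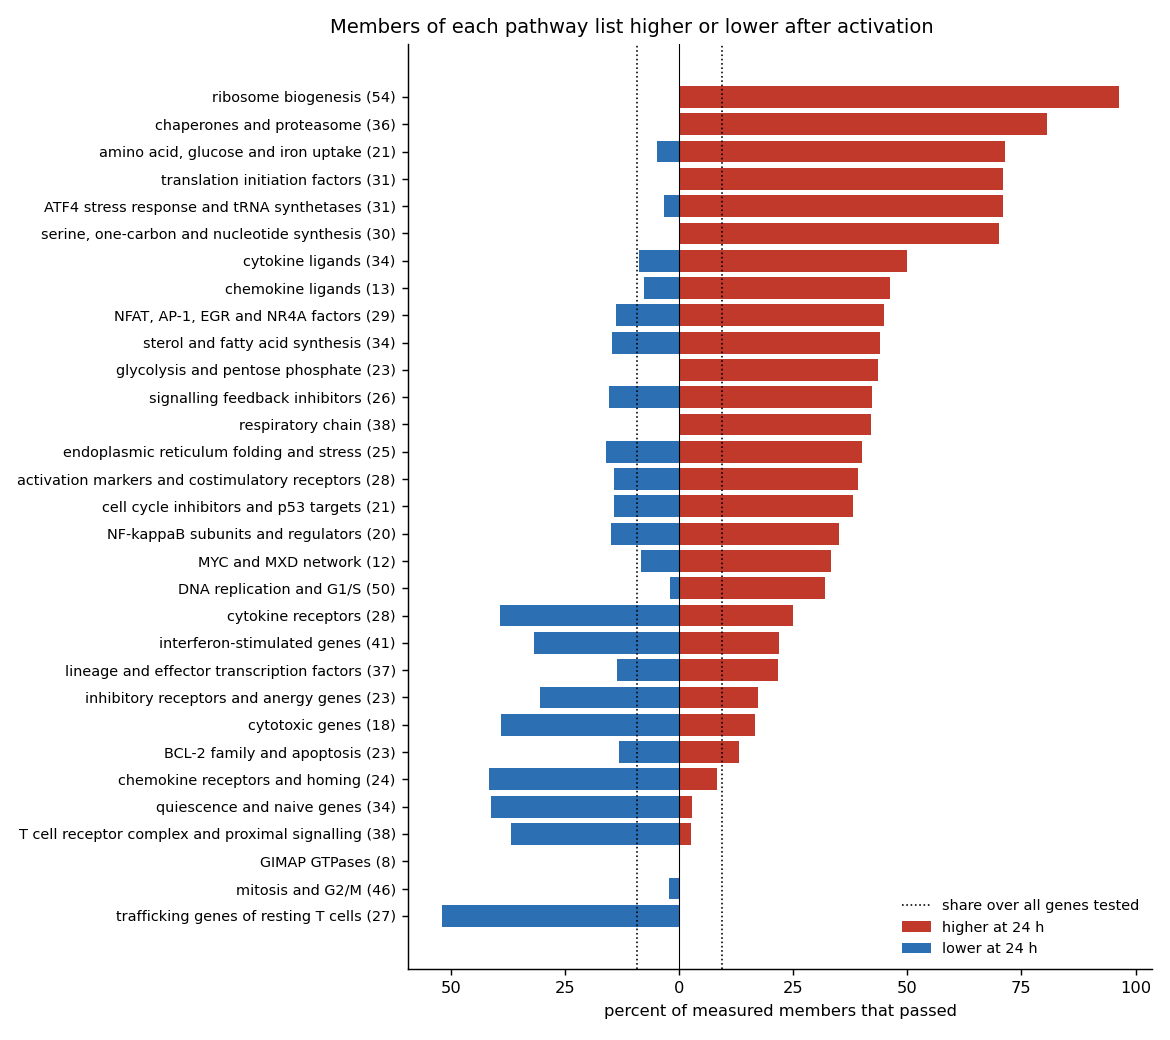
Percent of the measured members of each pathway list (number in brackets) that were higher (red, to the right) or lower (blue, to the left) after activation, with dotted lines at the shares over all genes tested (9.39% and 9.10%). Ribosome biogenesis has the longest red bar, with 52 of 54 members, and the trafficking genes of resting T cells the longest blue bar, with 14 of 27.

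Many cytokine genes rose. Of 34 measured ligands, 17 rose, 3 fell and 14 did not pass, with a median log2 change of 0.69. Il2, the growth factor of activated T cells, read 2.79, 2.56 and 2.76 at baseline and 7.31, 7.91 and 8.57 after activation. The groups were far apart, at 37.4-fold (log2 change 5.22 ± 0.28 SE, adjusted p = 7.32e-07). Ifng, the gene for the macrophage-activating cytokine interferon gamma, read 3.63, 3.89 and 3.46 at baseline and 7.30, 6.71 and 7.41 after activation (3.48 ± 0.20 SE, adjusted p = 9.13e-07). Genes of the type 2 cytokines rose beside it: Il13 from 4.07, 3.48 and 3.76 to 6.22, 6.20 and 6.74 (2.62 ± 0.18 SE), and Il4 from 3.68, 3.83 and 3.65 to 5.35, 5.63 and 5.45 (1.76 ± 0.17 SE). The labels name no polarising cytokines, and the arrays cannot say whether the same cells made both kinds. Members of the tumor necrosis factor family differed in direction. Lta (2.36), Tnfsf4, which encodes the ligand OX40L (2.20), Tnf (1.97), Tnfsf11, the gene for RANKL (1.27), and Tnfsf8, the gene for the CD30 ligand (1.13) rose, and Tnfsf10, which encodes the death ligand TRAIL, fell by 0.98. Cd40lg, whose product delivers help to B cells, changed by -0.56 and did not pass (adjusted p = 0.15). Lif (3.00), Mif (2.25), Il3 (1.70), Il10 (1.58) and Csf2 (1.42) also rose, while the genes of the Th17 cytokines read 0.10 (Il17f) and -0.29 (Il17a) and did not pass. Il9 read 2.54 and 2.81 on activated arrays 1 and 2 and 5.44 on array 3, and did not pass (adjusted p = 0.46).

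The promoter of Il2 is shown because its gene had the largest increase among the cytokines. The capitals mark the letters TGGAAA, the core bound by NFAT factors, here on the reverse strand and starting 47 bases before the annotated start of the gene. The 250 bases before that start (RefSeq, GRCm38.p6, chr3:37125955-37126204, minus strand) read as follows.
Il2: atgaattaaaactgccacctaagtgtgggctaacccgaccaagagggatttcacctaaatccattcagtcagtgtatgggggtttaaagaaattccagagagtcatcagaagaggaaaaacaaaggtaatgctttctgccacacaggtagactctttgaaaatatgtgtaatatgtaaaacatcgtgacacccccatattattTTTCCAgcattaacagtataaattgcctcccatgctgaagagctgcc
Counted on both strands of the same window, TGGAAA was present in 15 of the 27 cytokine ligand genes that have a promoter in the RefSeq table (55.6%), against 19.8% of the 17452 genes tested that have one. It was present in 5 of the 8 GIMAP genes (62.5%), of which none passed, in 19.1% of the genes that rose and in 19.1% of those that fell.

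Of 13 measured chemokine ligands 6 rose and 1 fell, with a median of 1.11, or 0.33 without activated array 3. Ccl22, a ligand of the receptor CCR4, read 3.17, 4.04 and 3.23 at baseline and 8.52, 8.88 and 9.10 after activation, a 40.9-fold difference (adjusted p = 1.57e-06). Ccl4, an inflammatory chemokine, went from 4.57, 3.77 and 4.12 to 7.03, 7.34 and 6.76 (2.89 ± 0.34 SE, adjusted p = 0.000178). All 3 activated values lay above all 3 baseline values for Ccl1, a ligand of CCR8 (3.12), Xcl1 (2.50) and Cxcl10 (1.59) as well. The same held for 17.7% of all genes. Ccl5, which is typical of memory and cytotoxic T cells and of NK cells, went the other way, from 8.37, 8.69 and 8.08 to 6.79, 7.30 and 5.89 (-1.72 ± 0.34 SE, adjusted p = 0.00474). The receptors of Ccl1 and Ccl22 rose too: Ccr8 read 4.74, 5.23 and 4.56 at baseline and 7.33, 7.68 and 7.85 after activation (2.78 ± 0.17 SE, adjusted p = 1.52e-06), and Ccr4 changed by 1.92.

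Among 28 cytokine receptor genes, 7 rose and 11 fell, and the number that fell was 5 or 6 when baseline array 1, 2 or 3 or activated array 3 was left out. Those that rose included receptor chains for interleukin-12, interleukin-2 and interleukin-15. Il12rb2, the chain that confers response to interleukin-12, read 4.88, 4.97 and 4.82 at baseline and 9.06, 8.95 and 7.55 after activation (3.63 ± 0.31 SE, adjusted p = 1.59e-05). Its value on array 3 was the lowest of the activated arrays. Il12rb1, the other chain of this receptor, changed by 2.50. Il2ra, which encodes the interleukin-2 receptor chain CD25, read 8.41, 8.53 and 8.47 at baseline and 10.74, 10.74 and 10.93 after activation, a 5.04-fold difference (adjusted p = 2.62e-07). Il15ra (1.56) and Il2rb (0.93) also rose. The gene for the receptor chain of interleukin-7, the survival factor of naive T cells, moved against these. Il7r read 10.30, 10.62 and 10.51 at baseline and 8.18, 8.39 and 7.54 after activation, 5.42-fold lower (-2.44 ± 0.19 SE, adjusted p = 8.35e-06). Il18r1 (-1.99) and Il13ra1 (-1.12) fell as well. Csf2rb, a receptor subunit of myeloid cells, fell by 2.18 beside the myeloid markers.

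Of 24 receptors and integrins that steer naive and memory cells through tissue, 10 fell (7 without baseline array 1 or 2). The chemokine receptors Ccr8 and Ccr4 rose, and 12 members did not pass. The median log2 change was -0.98, or -0.57 without activated array 3. Itga4, the alpha chain of the integrins VLA-4 and alpha4beta7, read 10.19, 10.22 and 10.17 at baseline and 8.55, 8.43 and 7.57 after activation (-2.01 ± 0.21 SE, adjusted p = 7.26e-05). Ccr9, a gut-homing receptor, (-1.97), Ccr2 (-2.03), Ccr6 (-1.65), Cxcr5, the receptor that guides cells to B cell follicles (-1.53), and Cxcr3 (-1.28) fell. Cxcr5 and Ccr6 are also B cell genes, and the B cell markers fell by a median of 2.60. Ccr7, the lymph node homing receptor of naive cells, changed by 0.44 and did not pass (adjusted p = 0.15). Without activated array 3, Ccr7 passed as higher (0.67, adjusted p = 0.012). S1pr1, whose product lets T cells leave lymph nodes, read 9.53, 9.74 and 9.72 at baseline and 9.04, 8.67 and 5.80 after activation. All 3 activated values were lower, but array 3 was far below the others and the test was not passed (-1.82 ± 0.75 SE, adjusted p = 0.126).

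Surface receptors of activation and costimulation rose in 11 of 28 and fell in 4. Tnfrsf4, which encodes OX40, read 7.55, 7.63 and 7.82 at baseline and 10.03, 9.85 and 10.14 after activation (2.34 ± 0.11 SE, adjusted p = 2.62e-07), so that both OX40 and its ligand gene Tnfsf4 rose in the same samples. Tnfrsf9, the gene for 4-1BB (2.28), Cd200 (1.96), Tnfrsf18, the gene for GITR (1.51), Slamf1 (1.37), the early activation antigen Cd69 (1.27) and Icos (0.92) rose. Cd28 itself changed by 0.16 and did not pass (adjusted p = 0.52). Nrp1 (-1.38), Cd24a (-1.69) and Entpd1, which encodes the ectoenzyme CD39 (-1.79), fell. Of 23 inhibitory receptors and anergy genes, 4 rose and 7 fell, or 7 rose and 4 fell without activated array 3. Leaving out a baseline array gave 4 that fell in each of the 3 cases. Lag3, an inhibitory receptor for MHC class II, read 6.04, 6.17 and 5.87 at baseline and 8.99, 9.39 and 7.87 after activation (2.72 ± 0.37 SE, adjusted p = 0.000439). Cd274, which encodes the ligand PD-L1, changed by 1.62, and Cblb, a ubiquitin ligase that restrains receptor signals, by 0.89. The inhibitory receptor genes Ctla4 (0.93), Tigit (1.29) and Pdcd1 (0.56) had adjusted p = 0.06, 0.06 and 0.09 and did not pass. Without activated array 3, Ctla4 (1.22, adjusted p = 0.019) and Tigit (1.59, adjusted p = 0.035) passed. Pdcd1 did not (0.32, adjusted p = 0.33). Lair1, a collagen receptor found on many leukocytes, fell by 2.43.

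**Figure D3:**
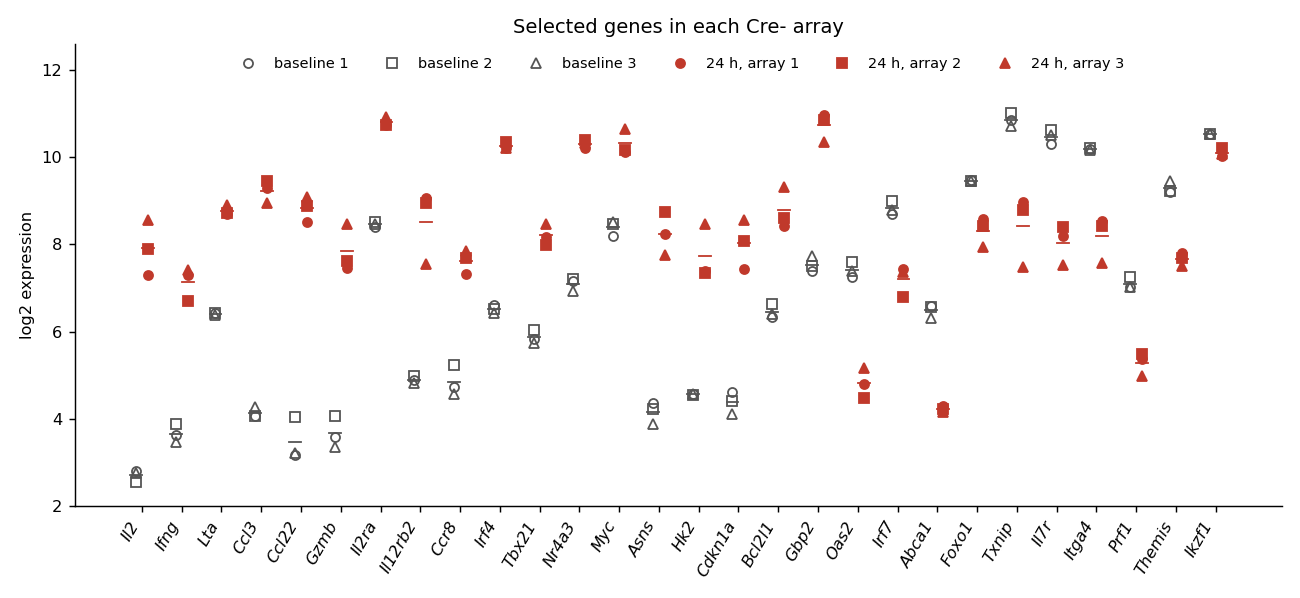
Log2 expression of 28 genes in each Cre- array, open grey symbols for baseline and filled red ones for 24 h, with the symbol shape giving the array number and the short lines the group means. Activated array 3 (triangle) lies below the other activated arrays for Il12rb2 and Il7r and above them for Il2 and Hk2.

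Transcription factors downstream of the receptor rose in 13 of 29 and fell in 4. Nr4a3, an orphan nuclear receptor induced by T cell receptor signals, read 7.15, 7.21 and 6.93 at baseline and 10.21, 10.39 and 10.33 after activation (3.21 ± 0.14 SE, adjusted p = 1.75e-07). Its relatives Nr4a2 (2.28) and Nr4a1 (2.18) and the zinc finger genes Egr2 (1.90), Egr3 (1.56) and Egr1 (1.02) rose with it. Within AP-1 the partners differed. Fosl1 (2.22), Atf3 (2.66) and Batf (0.72) rose, Jun fell by 0.98 (8.36, 8.19 and 8.64 against 7.61, 7.57 and 7.06), and Fos (0.06) and Junb (-0.04) did not pass. Of the NFAT genes themselves Nfatc2 fell by 0.60, and Nfatc1 read -0.06. Without baseline array 1, the number of factors that fell was 2.

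Of 20 NF-kappaB subunits and regulators, 7 rose and 3 fell (1 without baseline array 1). Nfkb2, the subunit of the noncanonical pathway, read 7.12, 7.01 and 6.98 at baseline and 8.23, 8.44 and 8.53 after activation (2.57-fold, adjusted p = 3.41e-05). Rel, the subunit c-Rel (0.76), and the inhibitors Tnip3 (1.78), Nfkbid (1.09) and Nfkbib (0.93) rose, and Ikbkb, the kinase that starts the pathway, fell by 0.92. The letters GGGANNNNCC, a shortened NF-kappaB element, were present before the start of 11 of the 17 list members with a promoter (64.7%) and of 22.4% of all genes with one.

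Factors of effector and lineage programmes rose in 8 of 37 and fell in 5, against 9.39% and 9.10% of all genes. The number that fell was 2 or 3 when baseline array 2 or 3 or activated array 3 was left out. Irf4, which scales with the strength of receptor signals, had the smallest adjusted p of the factors: it read 6.61, 6.53 and 6.43 at baseline and 10.22, 10.35 and 10.22 after activation (13.4-fold, adjusted p = 1.52e-08). Bhlhe40, a repressor linked to cytokine production, read 6.75, 6.79 and 6.71 and then 9.05, 9.14 and 9.10 (2.35 ± 0.10 SE). Tbx21, which encodes the Th1 factor T-bet, went from 5.83, 6.05 and 5.75 to 8.18, 7.98 and 8.47 (2.34 ± 0.14 SE). Nfil3 (1.63), Stat5a, which carries interleukin-2 signals (1.57), Irf8 (1.71) and the hypoxia factor Hif1a (1.29) rose. Gata3, the Th2 factor (0.34, adjusted p = 0.05), Bcl6 (-0.45), Foxp3 (-0.60) and Prdm1 (-0.06) did not pass. Runx1 fell by 0.87. Ikzf1, the gene for Ikaros, which is intact in these cells, read 10.54, 10.52 and 10.54 at baseline and 10.03, 10.22 and 10.08 after activation. The groups did not overlap, as for 17.4% of all genes in this direction, and the change was small (-0.42 ± 0.13 SE, adjusted p = 0.0458). It lost the call when any 1 of the 6 arrays was left out, with adjusted p for Ikzf1 between 0.0542 and 0.113, and with median centring, quantile normalization or a term for sex.

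Feedback inhibitors of signalling rose in 11 of 26 and fell in 4. Rgs16, a regulator of G protein signals, read 5.12, 5.78 and 5.43 at baseline and 8.30, 8.75 and 8.77 after activation (3.16 ± 0.20 SE, adjusted p = 2.03e-06). Spry1 (2.86), Dusp5 (2.06) and Dusp4 (1.71), which restrain MAP kinase signals, and Cish (2.61) and Socs1 (1.77), which restrain cytokine receptors, rose. Dusp1 (-1.0) and Rgs2 fell.

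Myc, the regulator of growth, read 8.20, 8.48 and 8.50 at baseline and 10.13, 10.17 and 10.66 after activation (1.93 ± 0.22 SE, adjusted p = 0.000131). Mxd4, which encodes an antagonist that competes for the same partner, moved the other way, from 8.02, 7.91 and 7.84 to 6.47, 6.37 and 4.96 (-1.99 ± 0.38 SE, adjusted p = 0.00408). Of the 12 genes of this network 4 rose and 1 fell, or 2 without baseline array 3 or activated array 3, and the list median was -0.07 as deposited and 0.02 with median centring. CACGTG, the E-box bound by MYC, was present in 8.33% of ribosome biogenesis promoters, 26.1% of those of translation initiation factors and 7.79% of all.

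Genes for the uptake of nutrients rose in 15 of 21 and fell in 1. Slc7a5, the leucine carrier, read 7.87, 7.75 and 7.37 at baseline and 9.85, 10.21 and 9.85 after activation (2.31 ± 0.15 SE, adjusted p = 2.04e-06). Its partner chain Slc3a2 (1.37), the transferrin receptor Tfrc (2.40), the lactate carriers Slc16a3 (1.94) and Slc16a1 (1.85) and the glucose carrier Slc2a1 (0.95) rose. The glycine carrier Slc6a9 had a wide spread, with 3.25, 3.96 and 4.15 at baseline and 7.30, 7.98 and 5.91 after activation (3.28 ± 0.55 SE). Bcat1, an enzyme that breaks down branched amino acids, went from 4.23, 4.00 and 3.87 to 7.26, 7.61 and 8.02 (3.59 ± 0.19 SE, adjusted p = 4.88e-07).

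Glycolysis and pentose phosphate genes rose in 10 of 23, and by limma none fell, also at an unadjusted p under 0.05 (0 genes). Hk2, an inducible hexokinase, read 4.56, 4.55 and 4.57 at baseline and 7.38, 7.36 and 8.47 after activation, 9.02-fold higher (adjusted p = 8.01e-05), while Hk1 changed by -0.01. The synthesis of serine, one-carbon units and nucleotides rose in 21 of 30, and by limma none fell (0 at an unadjusted p under 0.05). Both serine hydroxymethyltransferase genes rose, the mitochondrial form Shmt2 from 8.32, 8.35 and 7.90 to 10.15, 10.31 and 10.46 (2.12 ± 0.14 SE) and the cytosolic form Shmt1 from 5.27, 5.43 and 5.05 to 7.52, 7.57 and 9.16 (2.84 ± 0.42 SE). Psat1 (2.52), Mthfd2 (1.70), Cad, the entry enzyme of pyrimidine synthesis (1.69), and Odc1, the entry enzyme of polyamine synthesis, also rose. Tyms, which makes thymidylate for DNA synthesis, did not pass: it read 6.48 and 6.14 on activated arrays 1 and 2 and 8.84 on array 3 (0.91 ± 0.62 SE, adjusted p = 0.39).

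The ATF4 response and the transfer RNA synthetases, which charge transfer RNAs with amino acids, rose in 22 of 31 and fell in 1. Asns, the enzyme that makes asparagine, read 4.36, 4.23 and 3.87 at baseline and 8.24, 8.75 and 7.75 after activation, 17.1-fold higher (adjusted p = 4.94e-06). On this list array 3 was not the most changed array for most members: it was the farthest from baseline for 11 of 31, against 54 of 54 for ribosome biogenesis. Atf4 itself rose by 0.92, Aars by 1.81, Gars by 1.51 and Sesn2 by 1.71. Ddit4, an inhibitor of the growth kinase mTORC1, fell by 2.33, from 8.86, 9.31 and 8.12 to 6.72, 6.80 and 5.80. The promoter of Asns is shown because its gene rose most on this list. The capitals mark the letters TGATGNAA, the element bound by ATF4 with a CEBP partner, starting 23 bases before the start (RefSeq, GRCm38.p6, chr6:7693210-7693459, minus strand, 250 bases).
Asns: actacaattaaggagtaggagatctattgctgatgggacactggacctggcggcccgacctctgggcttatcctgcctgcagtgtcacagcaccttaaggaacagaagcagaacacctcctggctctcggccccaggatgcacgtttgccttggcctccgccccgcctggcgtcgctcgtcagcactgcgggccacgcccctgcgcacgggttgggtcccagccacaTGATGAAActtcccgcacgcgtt
On either strand TGATGNAA was present in 8 of the 24 members with a promoter (33.3%) and in 3.33% of all genes with one. Among all genes that rose it was present in 1.73%, and among those that fell in 3.29%.

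Of 34 sterol and fatty acid genes, 15 rose and 5 fell, and 3 fell without baseline array 1 or 2. The number that rose was 10 to 13 when any baseline array or activated array 3 was left out, and 17 or 18 without activated array 1 or 2. Activated array 3 was the farthest from baseline for 30 of the 34. The list median was 0.49, or 0.28 without that array. The mean level was 7.003, 6.981 and 6.738 at baseline and 7.047, 7.037 and 7.475 after activation. Cyp51, an enzyme of cholesterol synthesis, read 6.30, 6.61 and 5.63 at baseline and 7.45, 7.72 and 8.58 after activation (1.74 ± 0.30 SE, adjusted p = 0.00219), and of the same pathway Sqle changed by 1.49, Hsd17b7 by 1.19, Hmgcs1 by 1.16 and Fdft1 by 0.98. Abca1, a pump that exports cholesterol, read 6.59, 6.56 and 6.32 at baseline and 4.30, 4.22 and 4.16 after activation (-2.26 ± 0.13 SE, adjusted p = 1.04e-06). Mylip, which degrades the LDL receptor, fell by 1.97, and Scd1, a fatty acid desaturase, by 1.96. The regulators Srebf1 (0.15) and Srebf2 (0.10) did not pass. The promoter of Hmgcs1, an early enzyme of the pathway, is shown with the CCAAT box, a site of the factor NF-Y, in capitals. It has 3 matches, all on the reverse strand (RefSeq, GRCm38.p6, chr13:119690101-119690350, plus strand, 250 bases before the start).
Hmgcs1: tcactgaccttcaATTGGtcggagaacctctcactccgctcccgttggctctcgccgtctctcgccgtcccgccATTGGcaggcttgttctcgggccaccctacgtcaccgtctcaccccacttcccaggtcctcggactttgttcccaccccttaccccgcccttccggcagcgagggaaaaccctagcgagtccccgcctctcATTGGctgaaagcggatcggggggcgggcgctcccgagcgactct
CCAAT was present on either strand in 21 of the 26 members with a promoter (80.8%), in 77.3% of the endoplasmic reticulum list and in 38.9% of all genes with one.

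With all arrays, ribosome biogenesis had the largest share of members that rose among the lists, 52 of 54. By limma none fell (0 at an unadjusted p under 0.05), and the median log2 change was 1.12, against -0.0047 over all genes. Mrto4, a factor of the large subunit, read 6.37, 6.28 and 6.11 at baseline and 7.80, 7.69 and 8.92 after activation (1.88 ± 0.30 SE, adjusted p = 0.00125). Polr1b, a subunit of RNA polymerase I (1.53), Npm1, nucleophosmin (1.41), Ncl, nucleolin (1.28), and Fbl, fibrillarin (1.20), rose. The 2 that did not pass were Polr1a (0.50, adjusted p = 0.07) and Ubtf (0.05). Without activated array 3, 46 of the 54 rose, and without baseline array 1, 42 did. Translation initiation factors rose in 22 of 31 (16 without baseline array 3 or activated array 3). Chaperones and proteasome subunits rose in 29 of 36 (25 without activated array 3) and respiratory chain genes in 16 of 38 (9 without baseline array 3). No member was lower by limma in any of the 3 lists (0 at an unadjusted p under 0.05). Hspd1, the mitochondrial chaperone HSP60, changed by 1.89, and Eif4ebp1, an inhibitor of translation that mTORC1 inactivates, by 2.49. The endoplasmic reticulum list was mixed, with 10 of 25 higher and 4 lower. It had 6 higher when a baseline array or activated array 3 was left out, and 1 or 2 lower without baseline array 1 or 2 or activated array 1 or 3. Xbp1, a factor of the unfolded protein response, changed by 1.28.

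**Figure D4:**
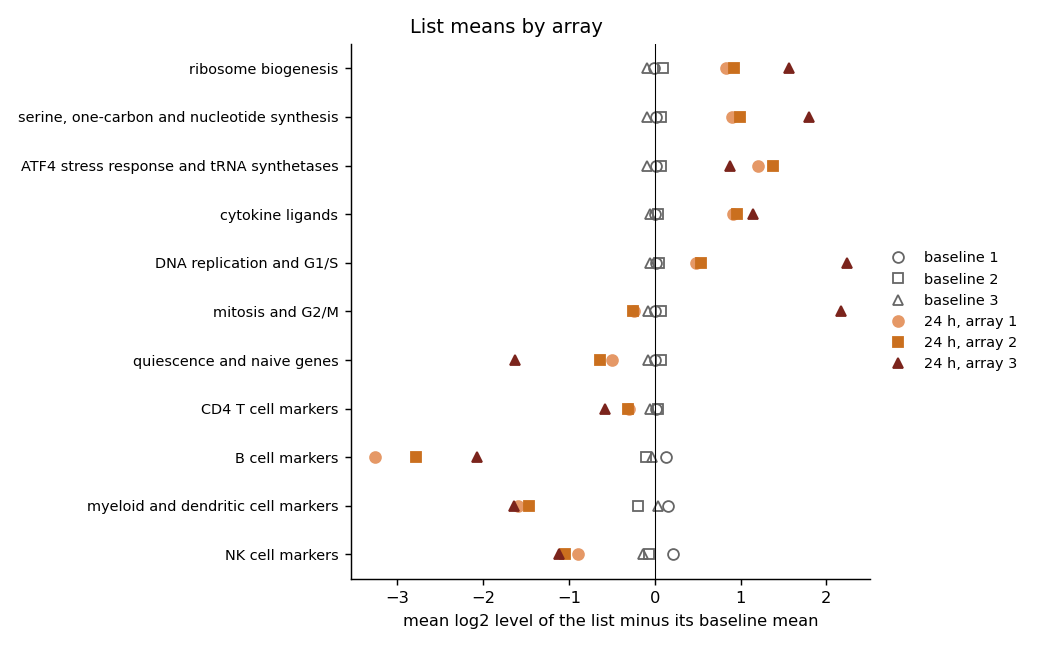
Mean log2 level of 11 lists in each Cre- array minus the baseline mean of the list (horizontal axis), open symbols for baseline and filled ones for 24 h. Activated array 3 (dark triangle) lies to the right of arrays 1 and 2 for DNA replication and mitosis, to the left for quiescence genes, and nearer to baseline for B cell markers.

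Cell cycle genes differed in level between the 3 activated arrays. DNA replication and G1/S genes rose in 16 of 50 and fell in 1, and rose in 6 to 8 when any baseline array or activated array 3 was left out. Their mean level was 6.40, 6.44 and 6.33 at baseline and 6.87, 6.92 and 8.62 after activation. The members that kept the call without array 3 included early G1 regulators. Cdk6 read 7.06, 7.17 and 6.79 at baseline and 8.99, 8.98 and 9.55 after activation (2.17 ± 0.20 SE, adjusted p = 3.28e-05), Ccnd2, cyclin D2, changed by 0.73 and Cdk4 by 1.05. Ccnd1, cyclin D1, fell by 1.75. Helicase subunits rose too, Mcm5 from 7.47, 7.41 and 7.51 to 8.57, 8.64 and 10.17 (1.67 ± 0.40 SE, adjusted p = 0.0131) and Mcm2 by 1.46.

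Mitosis genes were high on 1 of the 3 Cre- activated arrays. The mean of 46 genes was 5.64, 5.71 and 5.55 at baseline, 5.40 and 5.39 on activated arrays 1 and 2, and 7.81 on array 3, the farthest from baseline for 44 of the 46. By limma none rose (0 at an unadjusted p under 0.05) and 1, Cdc25b, fell (-0.72, adjusted p = 0.0169), and Cdc25b lost the call without baseline array 1 or 2 or activated array 3. The median log2 change was 0.57 with all arrays and -0.21 without array 3. Mki67, the proliferation marker Ki-67, read 7.85, 7.81 and 7.90 at baseline, 6.94 and 6.85 on activated arrays 1 and 2, and 9.65 on array 3 (adjusted p = 0.98). Cdk1, the mitotic kinase, read 5.27, 5.33 and 4.95 at baseline and 5.31, 5.24 and 8.52 after activation. Arrays 1 and 2 thus lay at or below baseline and array 3 above it for both genes. In Cre+ cells the mean of the mitosis genes was 5.87 and 5.37 on activated arrays 1 and 2 and 7.39 on array 3. For the DNA replication genes it was 7.43, 6.74 and 8.24. The array numbered 3 was thus the highest activated array in both genotypes. The cause of the difference between the activated arrays was not tested. TTTCCCGC, an E2F element, was present in 6 of the 40 DNA replication genes with a promoter and in 1.35% of all, and TTTGAA, the cell cycle homology region, in 38.5% of mitosis genes and 16.1% of all.

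Inhibitors of the cell cycle and p53 targets rose in 8 of 21 and fell in 3, and rose in 5 without baseline array 3 or activated array 3. Cdkn1a, the gene for p21, read 4.62, 4.42 and 4.11 at baseline and 7.45, 8.08 and 8.56 after activation (3.65 ± 0.25 SE, adjusted p = 3.22e-06). It was highest on array 3, the array with the highest mitosis genes. Plk2 (2.69) and Gadd45b (2.23) rose, and Sesn1 (-1.56) and Cdkn2d, which encodes the CDK4 and CDK6 inhibitor p19 (-1.03), fell. In the BCL-2 family 3 of 23 rose and 3 fell, against 9.39% and 9.10% of all genes. The number that rose was 1 without baseline array 1 or 3, and the number that fell was 1 without baseline array 2 or activated array 2. Bcl2l1, the survival gene BCL-XL, read 6.33, 6.64 and 6.40 at baseline and 8.43, 8.60 and 9.31 after activation (2.33 ± 0.25 SE, adjusted p = 8.09e-05), while Bcl2 (0.09) and Mcl1 (-0.20) did not pass.

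Genes of the quiescent, naive state fell in 14 of 34 (9 without baseline array 2), with a median of -1.0, or -0.54 without activated array 3. Txnip, which blocks glucose uptake, read 10.85, 11.01 and 10.72 at baseline and 8.98, 8.79 and 7.49 after activation (-2.44 ± 0.39 SE, adjusted p = 0.0012). Foxo1, the factor that maintains Il7r and homing receptors, went from 9.48, 9.46 and 9.45 to 8.58, 8.42 and 7.95 (-1.15 ± 0.16 SE, adjusted p = 0.000464). Btg2 (-1.85), which keeps messenger RNA levels low in resting cells, Dapl1 (-1.91), Pdk1 (-1.22) and Id3 (-0.87) fell. Bach2, a repressor of effector genes, was the only member of the list that rose with all arrays, by 0.55 (9.02, 8.80 and 9.07 against 9.68, 9.48 and 9.38). Without activated array 3, 2 rose, Bach2 and Ccr7. Klf2 read 8.90, 9.17 and 9.03 at baseline and 9.09, 8.77 and 5.60 after activation and did not pass (adjusted p = 0.37).

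Components of the T cell receptor and its proximal signalling fell in 14 of 38 and rose in 1 (Sla, 0.46), which lost the call in 5 of the 6 settings that left out an array, the exception being activated array 3. Themis, a receptor-associated adaptor, read 9.20, 9.22 and 9.46 at baseline and 7.81, 7.68 and 7.50 after activation (-1.63 ± 0.13 SE, adjusted p = 1.3e-05). Ppp3ca, a catalytic subunit of calcineurin, fell by 1.62, Tespa1 by 1.58, Grap2 by 1.20, Cd3g by 0.64 and Lat by 0.54, and Zap70 (0.11) and Lcp2 (0.18) did not pass. The antibody that stimulated the cells binds CD3, and the arrays measure RNA only. Of 27 trafficking and cytoskeletal genes of resting T cells, 14 fell (9 without baseline array 3) and by limma none rose with all arrays (1 at an unadjusted p under 0.05), against 1 that rose without activated array 3. Acp5 fell by 1.97 and Sidt1 by 1.34. By limma none of the 8 GIMAP GTPases, which support survival of naive T cells, passed (0 at an unadjusted p under 0.05), with a median of -0.44, or -0.20 without activated array 3. Array 3 was the farthest from baseline for 7 of the 8.

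Genes stimulated by interferon moved in both directions: of 41, 9 rose and 13 fell. Gbp2, a guanylate-binding protein, read 7.39, 7.50 and 7.73 at baseline and 10.98, 10.86 and 10.36 after activation, 9.14-fold higher (adjusted p = 1.74e-06). Iigp1 (2.01), Igtp (1.63) and Irgm1 (1.40), which are immunity-related GTPases, and Psmb9, an immunoproteasome subunit (0.62), rose. Oas2, an antiviral synthetase, read 7.26, 7.60 and 7.39 at baseline and 4.80, 4.49 and 5.16 after activation (-2.60 ± 0.21 SE, adjusted p = 1.29e-05). Irf7, the master regulator of type I interferon, went from 8.71, 9.0 and 8.79 to 7.44, 6.80 and 7.36 (-1.63 ± 0.19 SE, adjusted p = 0.000173). Ddx58, the RNA sensor RIG-I (-2.11), Rtp4 (-1.90), Oasl2 (-1.61) and Rsad2 (-1.10) fell. Siglech, a defining marker of plasmacytoid dendritic cells, the main makers of type I interferon, fell by 4.14 in the same samples, from 7.74, 7.37 and 7.86 to 3.63, 3.28 and 3.64, and its part in these decreases was not tested.

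The promoter of Gbp2 is shown because its gene rose most on the interferon list. The capitals mark the letters GAAANNGAAA, a shortened interferon response element, here on the reverse strand and starting 59 bases before the start (RefSeq, GRCm38.p6, chr3:142620413-142620662, plus strand, 250 bases).
Gbp2: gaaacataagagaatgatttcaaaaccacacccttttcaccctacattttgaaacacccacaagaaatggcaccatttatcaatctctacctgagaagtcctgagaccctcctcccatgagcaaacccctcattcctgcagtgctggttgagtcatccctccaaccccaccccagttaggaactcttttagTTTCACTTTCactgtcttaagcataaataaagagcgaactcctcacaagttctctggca
On either strand it was present in 16 of the 32 list members with a promoter (50.0%) and in 3.40% of all genes with one. Among the members that rose 6 of 7 with a promoter had it, and among those that fell 2 of 9. GAAANNGAAA can overlap TGGAAA, with which it shares the letters GAAA.

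Cytotoxic genes also split, with 3 of 18 higher and 7 lower. Gzmb, the protease granzyme B, read 3.58, 4.07 and 3.35 at baseline and 7.45, 7.62 and 8.47 after activation (4.18 ± 0.31 SE, adjusted p = 6.38e-06). The granzyme inhibitors Serpinb6b (2.74) and Serpinb9 (2.06), which protect the cell that carries granzyme B, rose with it. Prf1, perforin, fell from 7.03, 7.25 and 7.02 to 5.37, 5.49 and 4.98 (-1.82 ± 0.17 SE, adjusted p = 2.78e-05), and Gzma, Gzmk and Klrg1 fell by 1.99, 0.86 and 1.69. These are also genes of NK cells, whose list fell in 5 of 7 members in the same samples, so the share of T cells in the decrease was not tested. Regulatory T cell markers rose in 2 of 10, Il2ra and Tnfrsf18, which conventional T cells also raise when activated, and in 4 without activated array 3. Over all genes 9.39% rose, and 6.87% without that array. Nrp1 fell, and 2 of the list fell without activated array 2.

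Of the 20 largest decreases, 7 were on the lists of B cell, plasma cell, myeloid and NK cell markers. Fcmr, the IgM receptor, read 8.88, 8.70 and 8.82 at baseline and 3.83, 4.75 and 4.38 after activation (-4.48 ± 0.20 SE, adjusted p = 1.78e-07). Cr2, the complement receptor CD21, fell 16.5-fold, and Cd79a, a chain of the B cell receptor, read 4.99 and 5.24 on activated arrays 1 and 2 and 6.69 on array 3 after 9.81, 9.57 and 9.57 at baseline. Of the activated arrays, array 3 was the highest for Cd79a and for the mean of the B cell markers, while array 2 was the highest for Fcmr and Cr2. The other large decreases included further genes known from B and myeloid cells, namely Bank1 (-3.59), Cd180 (-4.44), Pld4 (-4.27) and Mpeg1 (-3.37). Dtx1, a Notch target and ubiquitin ligase that T cells express, read 9.93, 9.91 and 9.81 at baseline and 6.38, 6.47 and 6.16 after activation, 11.7-fold lower (adjusted p = 1.52e-08). It is also a gene of marginal zone B cells, and the part of B cells in its decrease was not tested. Hsd11b1, an enzyme that activates glucocorticoids, fell by 2.97.

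**Figure D5:**
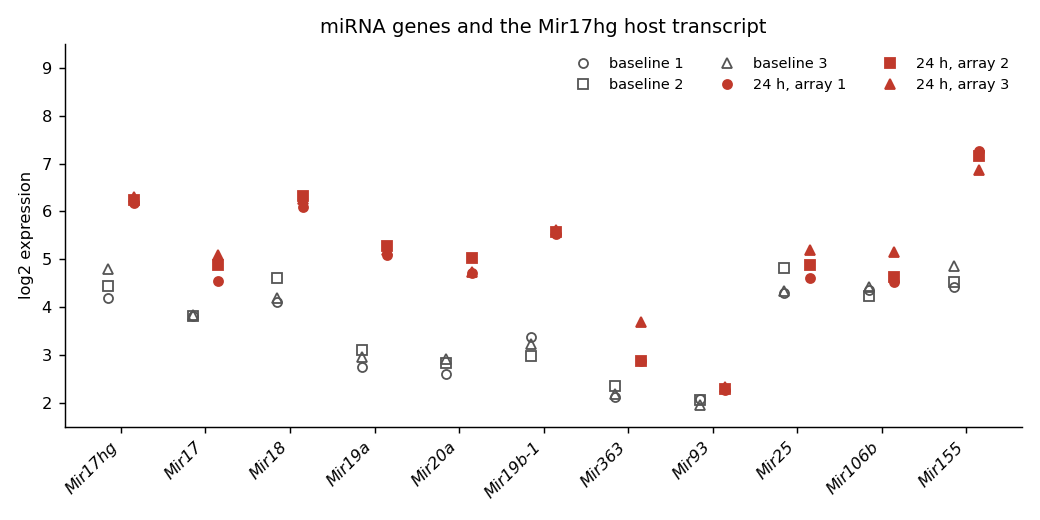
Log2 expression of miRNA genes and of the Mir17hg host transcript in each Cre- array, open grey symbols for baseline and filled red ones for 24 h, with the symbol shape giving the array number. The 5 genes of the Mir17 cluster and Mir155 lie higher after activation, and Mir93, Mir25 and Mir106b did not pass.

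Of 529 miRNA genes, 14 rose and 14 fell, against 9.39% and 9.10% of all genes. The 5 measured members of the Mir17 cluster rose together. The cluster and Mir155 were picked out after their values were seen. The probe sets cannot tell a mature miRNA from its precursor or host transcript. Mature miRNAs find their targets by the seed, bases 2 to 8, shown in capitals in the sequences below (RefSeq, GRCm38.p6). They are given because the members fall into few seed groups. Of the 529, 479 had an entry in the sequence table.
miR-17-5p: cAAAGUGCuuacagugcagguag
miR-20a-5p: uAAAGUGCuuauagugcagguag
miR-18a-5p: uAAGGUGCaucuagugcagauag
miR-19a-3p: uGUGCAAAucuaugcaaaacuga
miR-19b-3p: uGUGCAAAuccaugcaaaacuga
miR-155-5p: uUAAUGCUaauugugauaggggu
The miRNAs miR-17-5p and miR-20a-5p share the seed AAAGUGC, and miR-19a-3p and miR-19b-3p share GUGCAAA. The seed of miR-18a-5p is AAGGUGC, and that of miR-155-5p is UAAUGCU.

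The cluster lies on chromosome 14 within the noncoding gene Mir17hg, a known MYC target, and its members are cut from 1 primary transcript, so that they are not independent. Mir19b-1 read 3.36, 2.98 and 3.22 at baseline and 5.52, 5.58 and 5.61 after activation, 5.20-fold higher (adjusted p = 3.56e-06). Mir19a (2.24), Mir20a (2.05), Mir18 (1.93), Mir17 (1.02) and the host Mir17hg (1.76) rose as well. Their groups did not overlap, as for 17.7% of all genes in this direction. The related cluster on chromosome 5 did not pass: Mir106b changed by 0.44, Mir25 by 0.40 and Mir93 by 0.26. Mir155, on chromosome 16, which supports the effector response of T cells, read 4.41, 4.52 and 4.85 at baseline and 7.26, 7.15 and 6.87 after activation, 5.65-fold higher (adjusted p = 8.39e-06).

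The response of the Ikaros-intact cells was compared with that of the Cre+ cells by the difference of the 2 responses, which passed for 2 genes (0.00863% of those tested). Il3, which encodes a growth factor of myeloid progenitors, read 2.68, 2.72 and 2.81 at baseline and 4.15, 4.24 and 4.92 after activation in the Cre- cells, and went from 2.93, 2.95 and 2.39 to 8.02, 7.58 and 8.50 in the Cre+ cells. Its increase was smaller in Ikaros-intact cells by 3.57 ± 0.36 SE on the log2 scale (adjusted p = 0.00556). Ccn4, a matricellular gene, changed by 0.49 in Cre- cells and 2.40 in Cre+ cells, with a difference of 1.91 ± 0.18 SE (adjusted p = 0.00556). The 0.49 of Ccn4 in Cre- cells passed (adjusted p = 0.0183) but lost the call without baseline array 1 or 2 or activated array 2 or 3. For Ifng the increase was 3.48 in Cre- and 5.34 in Cre+ cells, and this difference did not pass (adjusted p = 0.0881). Without Cre- activated array 3, 8 genes passed.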

How the data were processed

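The authors deposited log2 expression per probe set. The submitters' processing notes name RMA, affy 1.36.1 and R 2.15.1. RMA quantile-normalizes the arrays, which removes any overall change in RNA per cell. The chip definition file is not given in the sources used here. Genes were tested with limma 3.58.1 under R 4.3.3, in a single model of the 4 group means over the 12 arrays that had no covariate. It left 8 residual and 3.55 prior degrees of freedom. The 2021 probe sets without a gene were not tested. Adjusted p-values are two-sided, Benjamini-Hochberg, over 23185 genes. SE values are moderated. The number of arrays limits the precision. The procedure was tested on simulated data. The comparison, the 31 pathway and 11 marker lists (948 of 1006 genes measured) and the rule for named genes were chosen with earlier results of these data known. The rule took, among genes that passed without overlap between groups, the 20 that rose most and the 20 that fell most, members of the lists, Ikzf1 and genes whose responses differed. List counts are descriptions without a test. Replicate numbers are not stated to pair the arrays, so the model had no block for them. Promoters, from RefSeq, were searched on both strands over 250 bases for 8 motifs, in 17452 genes.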

Additional observations from a re-analysis of the deposited data

Results flagged for a closer look

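Il3 was picked out because its response to activation differed between the genotypes by the test of the difference itself: the log2 increase was 1.70 in Cre- cells and 5.27 in Cre+ cells, a difference of 3.57. Ccn4 was picked out by the same test, with increases of 0.49 and 2.40 and a difference of 1.91. Groups of 3 arrays were not searched for outlying samples by a test.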

How the results depend on the processing

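The direction of each named gene that passed held in each of the 19 settings that tested it, and 10 named genes that did not pass (Bcl2, Bcl6, Fos, Hk1, Il17f, Junb, Mki67, Nfatc1, Prdm1 and Ubtf) changed sign when 1 array was left out. Of 194 named genes that passed, 168 kept the call in every setting, 22 lost it only with a 2-fold minimum, and 4 (Ikzf1, Sla, Cdc25b and Ccn4) lost it in others. With the 2-fold minimum, 719 genes were higher and 829 lower. Leaving out 1 array gave 1443 to 2276 higher and 1434 to 2115 lower. A fit of the Cre- arrays alone without activated array 3, an alternative chosen after seeing the data, gave 2095 higher and 1978 lower.

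With the replicate number as a block, 2344 genes were higher and 2348 lower, and 5 genes differed in response between the genotypes. The deviations of same-numbered baseline and activated arrays correlated at 0.020, 0.014 and -0.095, and not every array correlated best with its own number. With 3 arrays per group, these correlations cannot show whether the numbers pair the arrays. By Xist and Eif2s3y, baseline array 3 was male and activated array 3 female, while the arrays numbered 1 were both male and those numbered 2 both female.

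For the difference of the responses, array weights gave 143 genes, leaving out both genotypes' activated array 3 gave 11, and a term for sex gave 4. A minimum mean of 5, which removes Il3 and Ccn4, left 0 by limma (376 at an unadjusted p under 0.05). Leaving out 1 Cre- array gave 2 to 8; Cre+ arrays were not left out. Il3 and Ccn4 passed in every other setting run. The causes of the other shifts were not tested. Signal near the low end of the array limits the folds of genes that were dim in either group.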

Other observations

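Small nucleolar RNA genes, which guide the modification of ribosomal RNA, rose in 17 of 106 and fell in 2, against 9.39% and 9.10% of all genes. Several of their host transcripts, picked out after their values were seen, were higher: Snhg15 read 5.96, 6.23 and 6.12 at baseline and 7.48, 7.69 and 8.20 after activation (1.68 ± 0.18 SE, adjusted p = 8.09e-05), Zfas1 changed by 1.18, Snhg1 by 1.08 and Gas5 by 0.88. Of 2051 long noncoding RNA genes, 49 rose and 75 fell.

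Antigen receptor gene segments fell, and by limma none rose (at an unadjusted p under 0.05, 1 heavy chain segment was higher and 0 of the other groups). Of 98 immunoglobulin heavy chain segments 78 fell, and of 101 kappa and lambda segments 75 fell, beside the B cell markers. Of 95 T cell receptor alpha segments 74 fell (median -0.91), of 36 beta segments 10, of 15 gamma segments 9 and of 7 delta segments 2. Segments of 1 locus share probes and transcripts and are not independent. Immunoglobulin heavy chain segments averaged 5.81, 5.51 and 5.34 at baseline and 3.21, 3.51 and 4.08 after activation. The highest activated array was array 3, as for the mean of the B cell markers.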
